A study of Homo sapiens with 6 samples.

Results

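The 7 genes described here encode the cyclin-dependent kinase (CDK) inhibitors of the CIP/KIP and INK4 families. They are CDKN1A (p21), CDKN1B (p27) and CDKN1C (p57) of CIP/KIP, and CDKN2A (p16 and ARF), CDKN2B (p15), CDKN2C (p18) and CDKN2D (p19) of INK4. They were taken by gene symbol from a table of 65746 genes, and each symbol was found there. The cells were of SU-DHL-8, a human cell line established from diffuse large B-cell lymphoma (DLBCL) and labelled WT (wild type). One group had received erianin at 100 nM, a plant bibenzyl that binds tubulin, for 24 h, and the other its solvent DMSO for the same time. Each group gave 3 RNA-seq libraries of TRIzol-extracted total RNA. The labels call them replicate experiments but do not tell whether each came from its own culture, and the p-values cover no more than the spread among the libraries, part of which may be technical.

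CIP/KIP proteins bind cyclin and CDK together and restrain mainly CDK2 complexes, while INK4 proteins bind CDK4 and CDK6 alone and keep D-type cyclins from activating them. Both brakes keep the retinoblastoma family of pocket proteins bound to E2F transcription factors and so hold cells before DNA replication. CDKN1A is induced by many kinds of stress, CDKN1B is controlled largely by protein degradation, and the CDKN2A and CDKN2B locus is often deleted or silenced in aggressive lymphoma.

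Total counts ran from 32844464 to 35307027 in the erianin libraries and from 30956443 to 35588728 in the DMSO libraries. DMSO replicate 1 stood apart. Its biological coefficient of variation (BCV, the relative spread beyond counting error) against DMSO replicates 2 and 3 was 0.292 and 0.295, whereas it was 0.0336 to 0.0815 between erianin libraries and 0.038 between DMSO replicates 2 and 3. The members' fold changes and the counts of calls are therefore given with and without DMSO replicate 1. Other values are also given without it where it changed the call of a named gene, and in some cases where it moved the value. All 6 B-cell markers examined had a mean of at least 1 CPM (counts scaled to library size) over the 6 libraries. Their sums were 2290 to 2560 CPM in erianin and 2700 to 3730 CPM in DMSO libraries. The T-cell genes CD3G and CD2 and the epithelial genes EPCAM and CDH1 were at 0 throughout. All 4 T-cell markers summed to 0 to 0.0546 CPM in erianin and 0 to 0.0308 CPM in DMSO libraries. All 4 epithelial markers summed to 0 to 0.109 CPM in erianin and 0.0657 to 0.154 CPM in DMSO libraries. Of the 4 monocyte markers 1 had a mean of at least 1 CPM over the 6 libraries. The summed level of the monocyte markers was 9.36 to 10.6 CPM in erianin and 4.3 to 7.27 CPM in DMSO libraries. Its part in the results was not tested.

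The promoters of the members with the largest rises and of CDKN2A, whose pair of start sites gives different proteins, are shown for reference. Each is the 250 bases before a RefSeq start (GRCh38.p14), written 5′ to 3′ on the gene's strand, with capitals marking GC boxes, the site of SP1-family factors.
CDKN1A, chr6:36678464-36678713, plus strand: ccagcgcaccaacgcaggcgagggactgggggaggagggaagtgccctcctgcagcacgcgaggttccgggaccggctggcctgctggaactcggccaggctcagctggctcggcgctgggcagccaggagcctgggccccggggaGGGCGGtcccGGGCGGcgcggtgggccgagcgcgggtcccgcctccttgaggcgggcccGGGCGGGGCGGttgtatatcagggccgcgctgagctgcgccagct
CDKN2B, chr9:22009306-22009555, minus strand: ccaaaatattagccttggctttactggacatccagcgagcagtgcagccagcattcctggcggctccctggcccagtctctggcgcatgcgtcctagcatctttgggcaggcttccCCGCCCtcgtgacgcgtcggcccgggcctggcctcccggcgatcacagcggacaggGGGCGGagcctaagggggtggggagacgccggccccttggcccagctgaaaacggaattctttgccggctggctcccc
CDKN2A at the p16 start, chr9:21974858-21975107, minus strand: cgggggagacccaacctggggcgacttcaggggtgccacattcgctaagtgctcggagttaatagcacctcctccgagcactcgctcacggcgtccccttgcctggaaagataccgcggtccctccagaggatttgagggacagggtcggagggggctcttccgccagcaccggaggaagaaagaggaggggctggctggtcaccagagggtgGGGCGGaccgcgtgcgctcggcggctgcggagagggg
CDKN2A at the ARF start, chr9:21995325-21995574, minus strand: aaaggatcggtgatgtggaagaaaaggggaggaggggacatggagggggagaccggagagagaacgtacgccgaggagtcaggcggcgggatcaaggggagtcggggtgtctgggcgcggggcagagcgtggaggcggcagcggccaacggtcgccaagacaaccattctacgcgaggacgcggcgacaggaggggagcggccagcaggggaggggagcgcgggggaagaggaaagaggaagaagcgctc
The CDKN1A window held 4 GC boxes, 2 of which overlap, and had a GC content of 76.4%. The CDKN2B window held 2 GC boxes and the windows at the p16 and ARF starts of CDKN2A held 1 and 0. The letters searched on both strands were GGGCGG (GC box), CACGTG (E-box), TGANTCA (AP-1), TTTNNCGC (E2F), CCAAT and TATAAA, and none but the GC box occurred in these 4 windows. In all 35116 RefSeq promoters of the same length, a GC box occurred in 42.6%, an E-box in 6.34%, an AP-1 site in 6.57%, an E2F site in 5.92%, a CCAAT box in 32.0% and a TATA box in 10.7%. Of the other members with an entry, CDKN2C had 3 starts, whose windows held 0, 5 and 1 GC boxes, an E-box in 2 of the 3 and a CCAAT box in 1. CDKN1B held 1 GC box and 2 CCAAT boxes, and CDKN2D held 2 GC boxes, 1 CCAAT box and 1 E2F site. A match describes the letters of the window and not the binding of a factor.

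CDKN1A and CDKN2B rose with erianin, while CDKN1B, CDKN2A and CDKN2C fell. CDKN2D was not called, and CDKN1C had no reads. In bulk RNA, a change in the number of cells that express a gene and a change in its RNA per cell cannot be told apart. The comparison asked which of these brakes the compound changes at the RNA level, and was made with edgeR's quasi-likelihood F test over 11550 genes, with Benjamini-Hochberg adjusted p-values called at 0.05. Of all genes tested, 11.8% were called higher and 12.3% lower. Of the 7 members 6 were tested, of which 2 were called higher and 3 lower. Their median log2 fold change (erianin minus DMSO) was -0.17, beside -0.0033 for all genes tested. In the fit that left out DMSO replicate 1, 27.8% of 11773 genes were called higher and 27.4% lower, and 2 members were called higher and 4 lower (median -0.32, beside 0.029 for all genes).

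**Figure D1:**
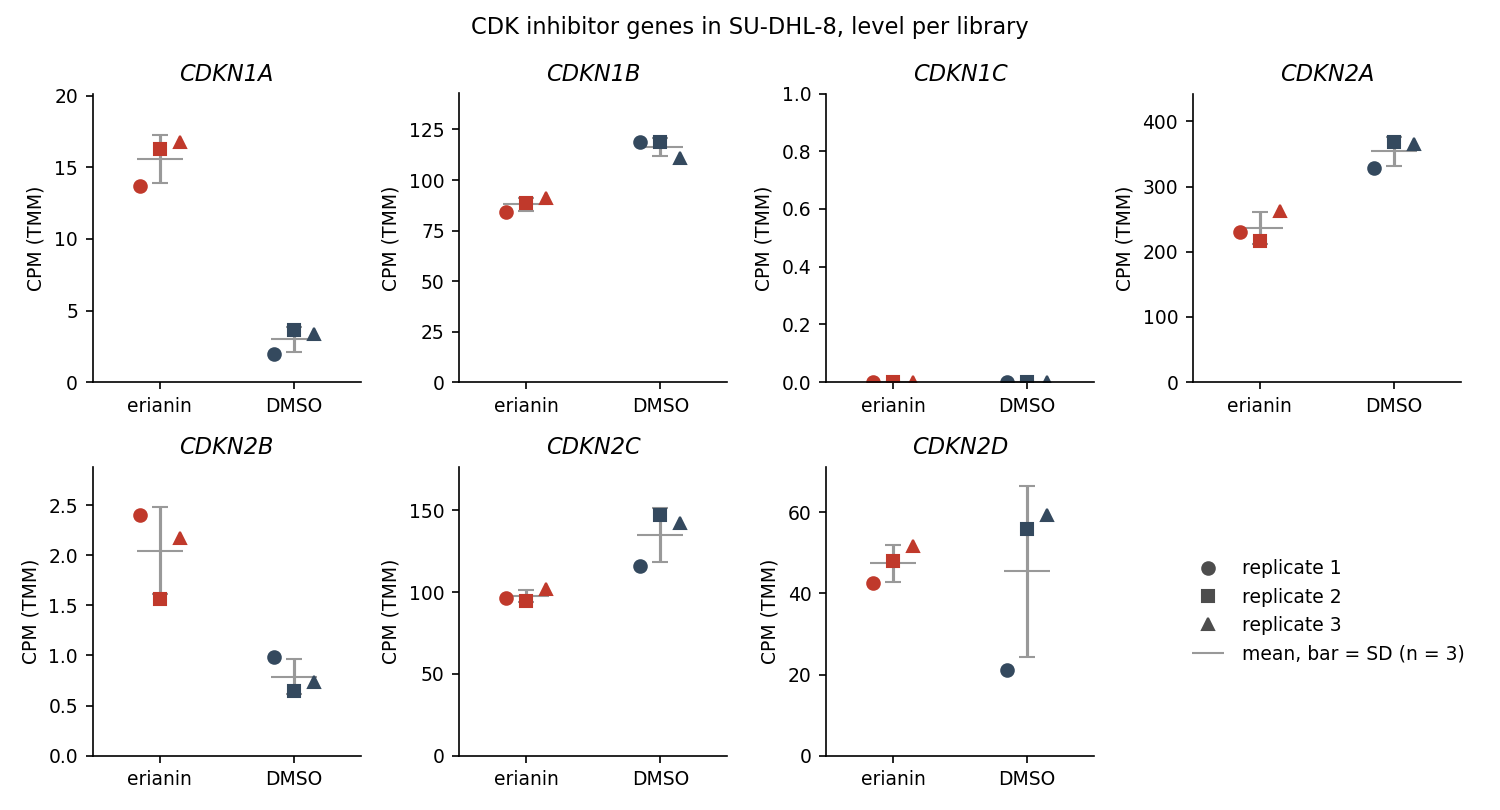
CPM of the 7 CDK inhibitor genes in the 3 erianin libraries (left of each panel) and the 3 DMSO libraries (right), with a panel and a linear axis per gene. Symbols are replicates, and the grey bar is the mean with its SD. CDKN1A and CDKN2B lie higher in every erianin library, CDKN1B, CDKN2A and CDKN2C lie lower in every erianin library, and DMSO replicate 1 is apart from the other DMSO libraries for CDKN2D.

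In the CIP/KIP family, CDKN1A (ENSG00000124762, chromosome 6, 36676460 to 36687339, plus strand, GRCh38), which encodes p21, had 503, 564 and 588 counts in erianin replicates 1, 2 and 3, against 60, 118 and 114 counts in DMSO replicates 1, 2 and 3. Scaled to library size this was 13.7, 16.3 and 16.8 CPM with erianin, against 1.97, 3.64 and 3.35 CPM with DMSO. Every erianin library was above every DMSO library, and DMSO replicate 1 was the lowest. The mean of 15.6 ± 1.64 CPM with erianin stood against 2.99 ± 0.891 CPM with DMSO (SD, n = 3 each), a log2 fold change of 2.38 ± 0.23 (SE; edgeR adjusted p = 0.0016), or 5.21-fold. The rise was 4.5-fold when DMSO replicate 1 was left out (2.17 ± 0.14, adjusted p = 2e-12). CDKN1A was called higher in all 19 other settings tried. It shares 146 exonic bases with the antisense transcript DINOL, which was listed at 0 in every library.

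CDKN1B (ENSG00000111276, chromosome 12, 12715058 to 12722371, plus strand), which encodes p27, the main brake on CDK2 in resting lymphocytes, had 84.3, 88.5 and 90.9 CPM with erianin, against 119, 119 and 111 CPM with DMSO. The groups did not overlap, and counts behind these values ran from 3064 to 3179 with erianin and from 3627 to 3853 with DMSO. The log2 fold change was -0.40 ± 0.10 (edgeR adjusted p = 0.023), with means of 87.9 ± 3.34 CPM in erianin and 116 ± 4.63 CPM in DMSO libraries. It was -0.37 ± 0.07 (adjusted p = 3.5e-05) without DMSO replicate 1. The call was lost without any 1 of the other 5 libraries (adjusted p = 0.05 to 0.14, log2 fold change -0.44 to -0.36). CDKN1C (ENSG00000129757, chromosome 11, 2883213 to 2885773, minus strand), the imprinted gene of p57, had 0 counts in all 6 libraries. At this depth a floor of 3 counts equals 0.0819 to 0.0867 CPM in erianin and 0.0882 to 0.0986 CPM in DMSO libraries, counting error only.

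In the INK4 family, CDKN2A (ENSG00000147889, chromosome 9, 21967753 to 21995301, minus strand) was the most abundant member. Its counts pool p16, the CDK4 and CDK6 inhibitor, with ARF, a protein read in another frame that binds MDM2, because both come from 1 gene. It had 231, 216 and 263 CPM with erianin, against 328, 369 and 365 CPM with DMSO, without overlap. The log2 fold change was -0.58 ± 0.11 (edgeR adjusted p = 0.012), with means of 237 ± 23.8 CPM in erianin and 354 ± 22.6 CPM in DMSO libraries. It was -0.62 ± 0.07 (adjusted p = 2.8e-08) without DMSO replicate 1. The call was lost without erianin replicate 1 (adjusted p = 0.075) or erianin replicate 2 (adjusted p = 0.079). CDKN2A shares 341 exonic bases with the antisense transcript CDKN2B-AS1 (ANRIL), and the handling of strand is not given in the sources used here. CDKN2B-AS1 itself had 2.71 ± 0.106 CPM with erianin and 3.54 ± 0.393 CPM with DMSO (log2 fold change -0.39 ± 0.16, adjusted p = 0.12).

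CDKN2B (ENSG00000147883, chromosome 9, 22002903 to 22009363, minus strand), the neighbour of CDKN2A and a known target of TGF-beta signalling, had 88, 54 and 76 counts with erianin, against 30, 21 and 25 counts with DMSO. These equal 2.40, 1.56 and 2.17 CPM with erianin, against 0.986, 0.647 and 0.735 CPM with DMSO. The groups did not overlap, although both were low. The log2 fold change was 1.37 ± 0.27 (edgeR adjusted p = 0.012), or 2.59-fold, with means of 2.05 ± 0.436 CPM in erianin and 0.789 ± 0.176 CPM in DMSO libraries. Leaving out DMSO replicate 1 gave 1.57 ± 0.30 (adjusted p = 8.3e-05). The call was lost without erianin replicate 1 (adjusted p = 0.062) or erianin replicate 3 (adjusted p = 0.055). CDKN2B shares no exonic base with CDKN2B-AS1 in the annotation used.

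CDKN2C (ENSG00000123080, chromosome 1, 50960745 to 50974633, plus strand), which encodes p18, an inhibitor needed for the exit of B cells into plasma cells in mice, had 96.4, 94.7 and 102 CPM with erianin, against 116, 147 and 142 CPM with DMSO. The groups did not overlap, and DMSO replicate 1 was the DMSO library nearest to the erianin libraries. The log2 fold change was -0.47 ± 0.12 (edgeR adjusted p = 0.03), with means of 97.8 ± 4.0 CPM in erianin and 135 ± 16.6 CPM in DMSO libraries. Leaving out DMSO replicate 1 gave -0.55 ± 0.06 (adjusted p = 7.5e-08). The call was lost without any 1 of the other 5 libraries (adjusted p = 0.08 to 0.14, log2 fold change -0.50 to -0.40).

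CDKN2D (ENSG00000129355, chromosome 19, 10566462 to 10569059, minus strand), which encodes p19 of the INK4 family, had 42.6, 48.0 and 51.6 CPM with erianin, against 21.2, 55.9 and 59.3 CPM with DMSO. DMSO replicate 1 lay below every erianin library and DMSO replicates 2 and 3 lay above them. With all 6 libraries the log2 fold change was 0.061 ± 0.35 (edgeR adjusted p = 0.91). Without DMSO replicate 1 CDKN2D fell, by 0.27 ± 0.08 on the log2 scale (adjusted p = 0.0068). Leaving out DMSO replicate 1 therefore reversed its sign. Over the 19 other settings tried, the sign was reversed in 5, among them this fit and that without erianin replicate 3 (-0.0046). It stayed the same in 14.

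**Figure D2:**
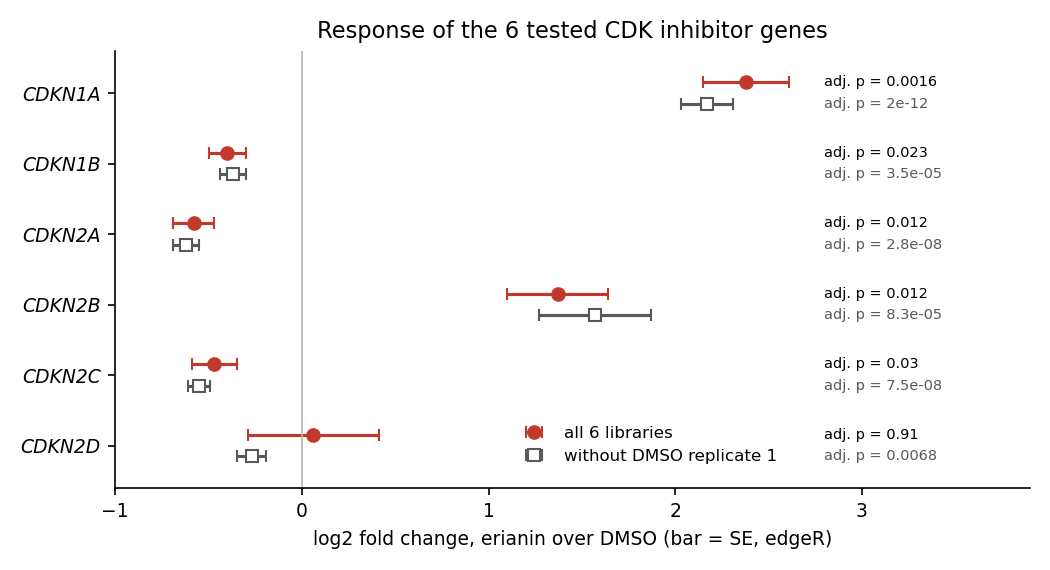
Log2 fold changes (erianin minus DMSO) of the 6 tested CDK inhibitor genes, with standard errors, from the fit with all 6 libraries and from the fit without DMSO replicate 1. CDKN1A (2.38 and 2.17) and CDKN2B (1.37 and 1.57) are the members above 0 in both fits, and CDKN2D crosses 0.

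Levels of different genes were compared per length, as TPM (length-scaled transcript abundances) rescaled so that every library had the same total. With erianin the order was CDKN2A (174.5 ± 13.6 TPM), CDKN1B (157 ± 6.04 TPM), CDKN2D (155 ± 13.9 TPM), CDKN2C (129 ± 2.69 TPM), CDKN1A (11.4 ± 1.21 TPM) and CDKN2B (2.86 ± 0.57 TPM). The range of CDKN2D overlapped those of CDKN1B and CDKN2A, and the ranges of the other neighbours in this order did not overlap. With DMSO it was CDKN2A (249 ± 2.58 TPM), CDKN1B (198 ± 16.2 TPM), CDKN2C (169 ± 12.1 TPM), CDKN2D (139 ± 60.0 TPM), CDKN1A (2.06 ± 0.523 TPM) and CDKN2B (1.07 ± 0.3 TPM). CDKN2D overlapped CDKN2C there, also in DMSO replicates 2 and 3 alone. In these CDKN2D had 167 and 180.1 TPM, and CDKN2C had 178 and 174 TPM. In DMSO replicate 1 CDKN2D had 70.4 TPM and CDKN2C had 155.5 TPM. The members thus fell into an abundant group of 4 genes and a low pair, and the low pair were the members that rose.

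The family totals followed the abundant genes. The 7 genes summed to 599.7, 628 and 659.9 TPM with erianin, against 691, 794 and 793 TPM with DMSO. The 2 expressed CIP/KIP genes summed to 160.2, 174 and 170.6 TPM with erianin, against 218, 197 and 187 TPM with DMSO. The groups of this sum did not overlap on the rescaled values. The INK4 genes summed to 439.5, 454 and 489 TPM with erianin, against 474, 597 and 606 TPM with DMSO, and DMSO replicate 1 lay inside the erianin range. Unlike shares within a library, all these totals depend on the rescaling. That step raised DMSO replicate 1 the most, because its TPM as deposited were the furthest below the full sum. Without the step DMSO replicate 1 would lie below every erianin library in each of these totals.

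CDKN1A made up 6.24%, 6.99% and 7.03% of the CIP/KIP transcripts with erianin, against 0.671%, 1.24% and 1.22% with DMSO. CDKN1B was the remainder, so it was still 93.2% ± 0.443 of the family with erianin, against 99.0% ± 0.321 with DMSO (SD, n = 3 each). In the INK4 family the share of CDKN2A was 37.9% ± 1.62 with erianin and 45.1% ± 5.96 with DMSO, and that of CDKN2B was 0.622% ± 0.136 with erianin and 0.198% ± 0.0856 with DMSO. CDKN2D was 33.5% ± 1.89 of INK4 transcripts with erianin and 24.2% ± 8.14 with DMSO, where DMSO replicate 1 had 14.9%. The groups did not overlap for any of these shares, each with p = 0.1 in a two-sided exact permutation test, the lowest value that a design of 3 against 3 can give. The share of CDKN2C was 28.0% ± 0.957 with erianin and 30.5% ± 2.14 with DMSO (exact p = 0.2). Without DMSO replicate 1 the differences in share were smaller for CDKN2A (-3.84 against -7.28 percentage points), CDKN2D (4.66 against 9.33) and CDKN2C (-1.29 against -2.48). The shares depend on the length assigned to each gene. With exon lengths from GENCODE release 29 CDKN1A was 14.0% ± 0.852 of CIP/KIP with erianin and 2.32% ± 0.708 with DMSO.

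**Figure D3:**
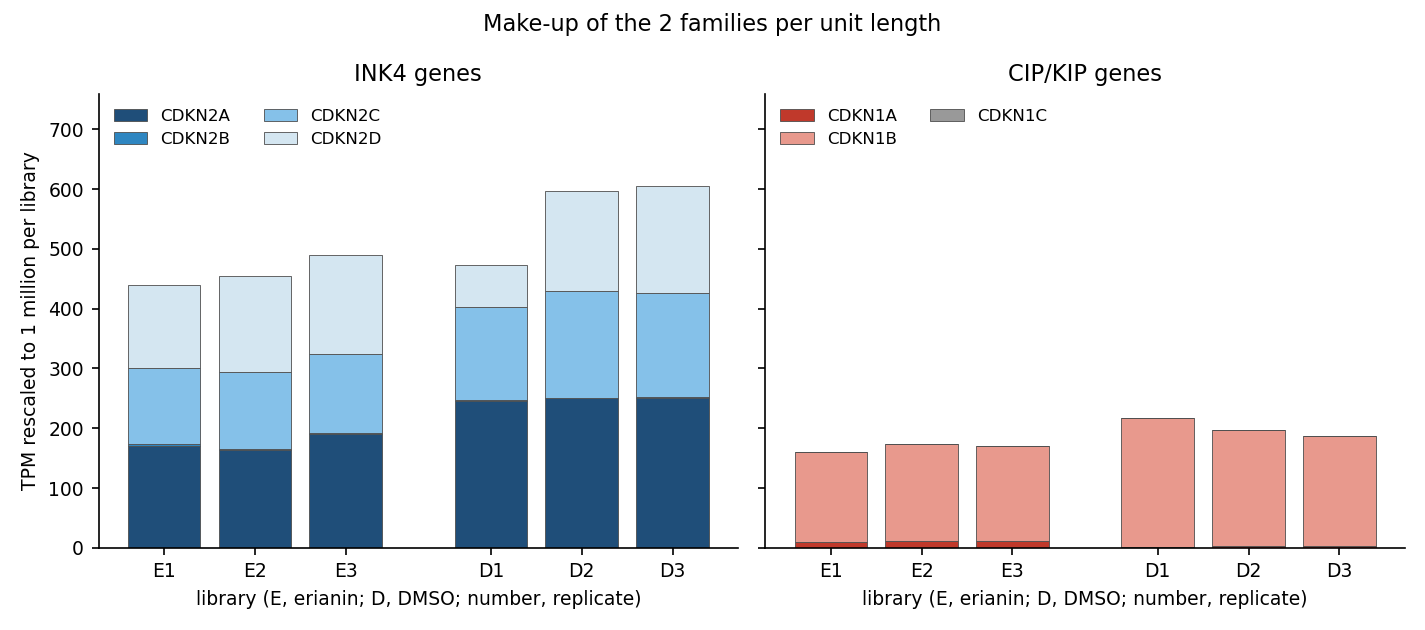
Rescaled TPM of each member stacked by family, in the 3 erianin libraries and the 3 DMSO libraries. The stacks are made up mainly of CDKN1B in CIP/KIP and of CDKN2A, CDKN2C and CDKN2D in INK4, and CDKN1A and CDKN2B are thin segments in every library.

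Ratios between members within a library do not depend on library scaling, and 15 pairs of tested members were compared. The groups did not overlap for 10 pairs, each with an exact permutation p of 0.1, or 0.15 after Benjamini-Hochberg adjustment over the pairs. The pairs share genes and are not independent, and every pair with CDKN1A was among the 10. The share without overlap over all pairs of genes was not counted, so the 10 pairs cannot be read as particular to these members. The log2 ratio of CDKN1A to CDKN1B counts was -2.5 ± 0.10 with erianin, against -5.32 ± 0.5 with DMSO (SD, n = 3 each), a difference of 2.82. At the shared locus on chromosome 9 the log2 ratio of CDKN2A to CDKN2B counts was 6.85 ± 0.26 with erianin, against 8.77 ± 0.39 with DMSO, a difference of -1.92. Ratios among the members that fell moved less. CDKN1B to CDKN2C differed by 0.05 (exact p = 0.7), CDKN2A to CDKN2C by -0.13 (exact p = 0.2) and CDKN1B to CDKN2A by 0.18 (exact p = 0.2), and the groups overlapped in each. With 1 library left out in turn, these differences ran from -0.02 to 0.18 for CDKN1B to CDKN2C, from -0.17 to -0.07 for CDKN2A to CDKN2C and from 0.11 to 0.25 for CDKN1B to CDKN2A. With 3 libraries a group these values do not show that the ratios were equal.

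The genes of CDKs and cyclins, many of which the inhibitors bind, were counted next. The list also holds CDK7, CCNH and MNAT1 of the CDK-activating kinase, which are not the usual targets of the inhibitors. Of the 17 listed genes 14 were tested. Of these 2 were called higher and 4 lower (median log2 fold change -0.30), beside 11.8% and 12.3% of all genes. In the fit without DMSO replicate 1 it was 2 higher and 6 lower of 16 (median -0.075), beside 27.8% and 27.4% of all genes. The number lower was 2 without erianin replicate 1 and 1 without erianin replicate 2, and the number higher was 1 without any 1 library other than DMSO replicate 1. CCNB1, the mitotic cyclin B1, had 345 ± 14.7 CPM with erianin and 114 ± 19.9 CPM with DMSO (1.60 ± 0.15, edgeR adjusted p = 0.0013). CCNB2, cyclin B2, was the other one called higher (0.40 ± 0.11, adjusted p = 0.042) and lost its call in those 5 fits (up to 0.17). The cyclin E genes, which partner CDK2 at the start of DNA replication, fell. CCNE1 had 37.2 ± 1.89 CPM with erianin and 68.6 ± 3.15 CPM with DMSO (-0.88 ± 0.10, adjusted p = 0.0025), and CCNE2 had 24.7 ± 2.14 CPM with erianin and 47.9 ± 9.71 CPM with DMSO (-0.96 ± 0.16, adjusted p = 0.0077; 0.051 without erianin replicate 2). CDK1, the mitotic kinase, had 79.2 ± 5.97 CPM with erianin and 145 ± 29.1 CPM with DMSO (-0.87 ± 0.16, adjusted p = 0.0094). Its call was lost without any 1 erianin library (adjusted p up to 0.055). Without DMSO replicate 1 the log2 fold changes were -0.76 for CCNE2 and -0.69 for CDK1. CCND3, the D-type cyclin of highest level in the list, was the remaining call, with 1731 ± 88.7 CPM in erianin and 2855 ± 387 CPM in DMSO libraries (-0.72 ± 0.13, adjusted p = 0.0095; up to 0.064 without erianin replicate 1 or 2).

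CDK4, CDK6 and CDK2, the main kinases held by INK4 and CIP/KIP proteins, were not called with all 6 libraries. They are named for that role, outside the rule for named genes. CDK4 had 257, 243 and 275 CPM with erianin, against 169, 417 and 408 CPM with DMSO (log2 fold change -0.36 ± 0.31, edgeR adjusted p = 0.44). As for CDKN2D, DMSO replicate 1 was below the erianin libraries and the other DMSO libraries above them. Without it CDK4 was called lower (-0.66 ± 0.06, adjusted p = 1.7e-09). CDK6 had 57.2 ± 5.29 CPM with erianin and 75.5 ± 18.8 CPM with DMSO (-0.40 ± 0.18, adjusted p = 0.15), and -0.16 ± 0.08 (adjusted p = 0.08) without DMSO replicate 1, its highest library. CDK2 had 118 ± 7.77 CPM with erianin and 119 ± 2.67 CPM with DMSO (-0.0072 ± 0.1, adjusted p = 0.97).

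Of the 13 pocket proteins and E2F factors, which act below the CDKs, 7 were called lower and 0 higher by edgeR (median -0.49). Of all genes tested, 12.3% were called lower and 11.8% higher. At an unadjusted p below 0.05 the list had 8 lower and 1 higher, by DESeq2 8 and 1, and by limma-voom 7 and 0. Among all genes tested, DESeq2 called 1897 lower and 1746 higher, and limma-voom called 1361 lower and 1401 higher. The count of all genes at an unadjusted p below 0.05 is not given here, so the list's count at that threshold has no comparison. In the fit without DMSO replicate 1, the list had 8 lower and 3 higher, beside 27.4% and 27.8% of all genes. The number lower was 1 without erianin replicate 1 or 2 and 2 without erianin replicate 3. E2F8, a repressor of E2F targets, had 36.6 ± 1.11 CPM with erianin and 94.1 ± 30.6 CPM with DMSO (-1.36 ± 0.22, adjusted p = 0.0063). E2F7, its close relative, had 33.0 ± 1.2 CPM with erianin and 70.1 ± 22.3 CPM with DMSO (-1.09 ± 0.21, adjusted p = 0.012). RBL1, the pocket protein p107, had 35.7 ± 4.67 CPM with erianin and 74.4 ± 22.2 CPM with DMSO (-1.06 ± 0.22, adjusted p = 0.014). RBL2, the pocket protein p130, had 38.9 ± 1.85 CPM with erianin and 58.6 ± 4.08 CPM with DMSO (-0.59 ± 0.10, adjusted p = 0.0087). In each of E2F7, E2F8 and RBL1, DMSO replicate 1 was the highest library, and the log2 fold changes without it were -0.78, -1.05 and -0.77. The calls of E2F7 and RBL1 were lost without any 1 erianin library (adjusted p up to 0.065 and 0.07), and that of RBL2 without erianin replicate 1 or 2 (up to 0.061). E2F1, E2F2 and TFDP2 made up the 7, with log2 fold changes of -0.67, -0.49 and -0.47. Each lost its call without any 1 erianin library or without DMSO replicate 2 (adjusted p up to 0.12, 0.15 and 0.12). E2F1 and E2F2 also lost it without DMSO replicate 3. RB1 itself was not called (-0.74 ± 0.23, adjusted p = 0.054), but was called lower without DMSO replicate 1 (-0.41 ± 0.07, adjusted p = 2.7e-05).

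Of the 18 genes for the turnover of CIP/KIP proteins, 3 were called higher and 1 lower (median -0.015), beside 11.8% and 12.3% of all genes. Leaving out DMSO replicate 1 gave 7 and 5 (median 0.0028), beside 27.8% and 27.4% of all genes. For the list, leaving out erianin replicate 1 or 2 gave 1 and 0, and leaving out erianin replicate 3 gave 2 and 0. CDC20, an activator of the anaphase-promoting complex, which can target p21 in mitosis, had 501.5 ± 20.4 CPM with erianin and 227 ± 46.4 CPM with DMSO (1.15 ± 0.16, edgeR adjusted p = 0.0044). SKP1, the adaptor of the SCF ligase that marks p27, had 79.4 ± 5.53 CPM with erianin and 53.9 ± 3.23 CPM with DMSO (0.56 ± 0.11, adjusted p = 0.011). CKS1B, the cofactor that lets the ligase bind p27, had 195 ± 11.3 CPM with erianin and 305 ± 67.0 CPM with DMSO (-0.65 ± 0.16, adjusted p = 0.027). Its paralog CKS2 had 138 ± 5.66 CPM with erianin and 76.2 ± 25.7 CPM with DMSO (0.86 ± 0.25, adjusted p = 0.042). Without DMSO replicate 1 the log2 fold changes were -0.44 for CKS1B and 0.61 for CKS2. SKP1 lost its call without erianin replicate 1 or 2 (adjusted p up to 0.068), CKS1B without any 1 erianin library (up to 0.12), and CKS2 without any of these or DMSO replicate 3 (up to 0.13). SKP2, which recognises p27, was not called (-0.21 ± 0.11, adjusted p = 0.19).

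Of 30 listed transcription factors of CIP/KIP genes 27 were tested. There were 2 called higher and 5 lower (median -0.15), beside 11.8% and 12.3% of all genes. Leaving out DMSO replicate 1 gave 7 and 10 (median -0.10), beside 27.8% and 27.4% of all genes. Without any 1 erianin library the number higher in the list was 1. TP63, a transcription factor best known from epithelia, had 3.69, 3.32 and 3.43 CPM with erianin, against 27.0, 10.8 and 11.9 CPM with DMSO (-2.25 ± 0.36, edgeR adjusted p = 0.0067; -1.69 without DMSO replicate 1). ZBTB17 (MIZ1), which activates CDKN1A and CDKN2B unless held by MYC, had 62.1 ± 5.75 CPM with erianin and 121 ± 2.3 CPM with DMSO (-0.96 ± 0.11, adjusted p = 0.0024). GFI1, a repressor that can bind the CDKN1A promoter, had 13.8 ± 1.17 CPM with erianin and 33.0 ± 2.33 CPM with DMSO (-1.26 ± 0.12, adjusted p = 0.0015). MYC, which represses CDKN1A and CDKN2B through MIZ1, was not called (-0.73 ± 0.23, adjusted p = 0.06), and neither was BCL6, a repressor of CDKN1A in germinal centre B cells (0.11 ± 0.27, adjusted p = 0.81). Without DMSO replicate 1 both were called, MYC lower (-0.38 ± 0.06, adjusted p = 1.1e-05) and BCL6 higher (0.52 ± 0.12, adjusted p = 0.00084). SP1, whose sites are the GC boxes above, fell too, with 161, 168 and 153 CPM in erianin libraries, against 410, 270 and 256 CPM in DMSO libraries (-0.96 ± 0.19, adjusted p = 0.012; up to 0.065 without any 1 erianin library). STAT3 (0.59 ± 0.10, adjusted p = 0.0067) and the histone deacetylase gene HDAC1 (0.54 ± 0.13, adjusted p = 0.025; up to 0.11 without any 1 erianin library) were those called higher. MYC, BCL6 and SP1 are named for their roles, outside the rule. Levels of mRNA do not measure the activity of these factors.

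**Figure D4:**
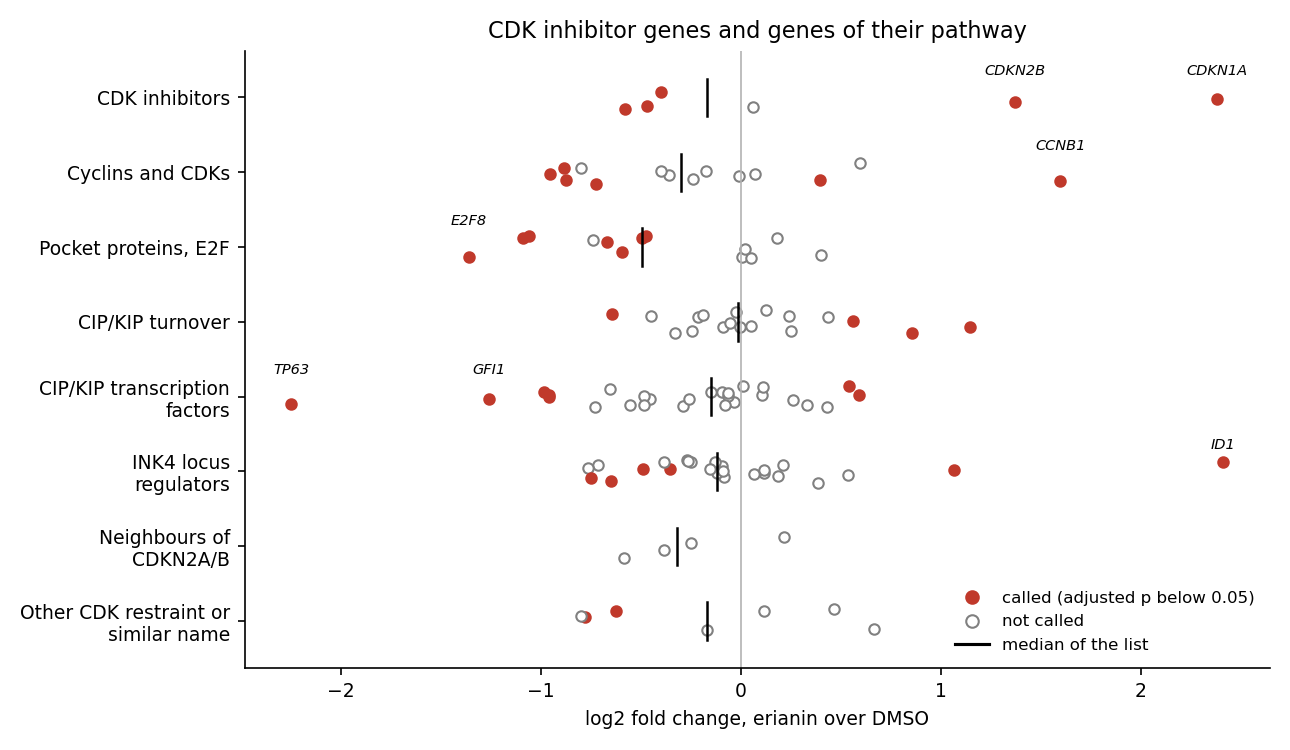
Log2 fold changes (erianin minus DMSO) of the tested genes of the 7 lists around the CDK inhibitors and of the members, with called genes filled and others hollow. The list of pocket proteins and E2F factors has 7 genes called lower and 0 called higher, and the other lists hold calls in both directions or few calls.

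Of 26 listed Polycomb and other regulators of the INK4 locus 25 were tested. There were 2 called higher and 4 lower (median -0.12), beside 11.8% and 12.3% of all genes. Leaving out DMSO replicate 1 gave 5 and 8 (median -0.03), beside 27.8% and 27.4% of all genes. The number higher was 1 without any 1 of the other 5 libraries, and the number lower was 1 without erianin replicate 1 or 2 and 2 without erianin replicate 3. ETS1, an activator of p16 transcription, had 254 ± 15.6 CPM with erianin and 426 ± 54.6 CPM with DMSO (-0.75 ± 0.12, edgeR adjusted p = 0.0068). ID2 of the ID family, whose member ID1 opposes ETS factors at p16, had 24.8 ± 1.5 CPM with erianin and 11.8 ± 2.91 CPM with DMSO (1.07 ± 0.18, adjusted p = 0.0077). ID1 had 14, 12 and 34 counts with erianin, against 4, 4 and 2 counts with DMSO (2.41 ± 0.61, adjusted p = 0.029), and lost its call in all 5 fits that left out another library (up to 0.079). DNMT1, the maintenance DNA methyltransferase, had 595 ± 21.5 CPM with erianin and 835 ± 31.6 CPM with DMSO (-0.49 ± 0.09, adjusted p = 0.011; up to 0.083 without erianin replicate 1 or 2). EZH2, the Polycomb methyltransferase, was also called lower (-0.65 ± 0.19, adjusted p = 0.045; -0.38 ± 0.06 without DMSO replicate 1) and lost its call without any 1 erianin library (up to 0.16). BMI1, a Polycomb repressor of the locus, was not called (0.21 ± 0.16, adjusted p = 0.37; 0.11 ± 0.10 without DMSO replicate 1, adjusted p = 0.39).

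Among 10 neighbours of CDKN2A and CDKN2B on chromosome 9, 4 were tested and 0 were called in either direction by edgeR (median -0.32), with 0 higher and 1 lower, FOCAD, in the fit without DMSO replicate 1 (median -0.21). CDKN2B-AS1 (0.047) and FOCAD (0.035) were the 2 below 0.05 by the unadjusted p, DESeq2 called 1 lower, and limma-voom called 0. MTAP, which lies next to CDKN2A, had 3, 7 and 9 counts with erianin, against 1, 7 and 4 counts with DMSO, too few to test. KLHL9, further along, had 44.8 ± 2.38 CPM with erianin and 38.5 ± 3.52 CPM with DMSO (0.22 ± 0.11, adjusted p = 0.2). Of the 7 other genes that restrain CDKs or carry a related name, 2 were called lower and 0 higher by edgeR (median -0.17), and 3 lower and 3 higher in the fit without DMSO replicate 1. At an unadjusted p below 0.05 it was 3 lower and 2 higher, by DESeq2 3 and 0, and by limma-voom 2 and 0. The number lower was 1 without erianin replicate 2. Over all genes tested, edgeR called 12.3% lower and 11.8% higher, and 27.4% and 27.8% without DMSO replicate 1. The DESeq2 and limma-voom counts over all genes are given with the E2F factors. No count of all genes at an unadjusted p is given for comparison. CDKN2AIP, which encodes an ARF-binding protein, had 54.9 ± 3.04 CPM with erianin and 94.2 ± 3.62 CPM with DMSO (-0.78 ± 0.10, edgeR adjusted p = 0.0033). WEE1, the kinase that holds CDK1 inactive, had 70.2 ± 2.91 CPM with erianin and 108 ± 5.84 CPM with DMSO (-0.62 ± 0.10, adjusted p = 0.0062; 0.05 without erianin replicate 2, where the call was lost).

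For each called member the genes of most like profile, up to 4, were found by the root mean square difference of log2 CPM, centred on each gene, over the 6 libraries. CDKN1A lay nearest to HSPA1B (0.102), SERTAD1 (0.219), FUT7 (0.226) and MKNK2 (0.228), against a deviation of CDKN1A from its own mean of 1.24. HSPA1B may share reads with its near-identical copy HSPA1A. CDKN2B lay nearest to MYH3 (0.126), NCR3LG1 (0.13), ZBP1 (0.14) and NUMBL (0.181), against 0.716. The members that fell had smaller deviations of their own, of 0.207 for CDKN1B, 0.308 for CDKN2A and 0.255 for CDKN2C. COQ9 (0.0214), ARMC9 and BRD1 were the 3 nearest to CDKN1B. SLC25A6 (0.0247), RHOG, GTF3C5 and SEMA4A were nearest to CDKN2A. ACTR1A (0.0216), VPS4A, AMBRA1 and TCL1A were nearest to CDKN2C. The nearest genes of the 5 members did not repeat, and none was itself a member.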

How the data were processed

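The authors deposited whole-number gene counts, and TPM made from them. Per the submitters' processing notes, StringTie 2.2.1, featureCounts 2.0.1, STAR 2.7.10, fastp 0.23.2 and GRCh38 (hg38) were used, in roles not stated. For strand, read pairs, multi-mapping reads and annotation release, the handling is not given in the sources used here. The deposited TPM reached 39.2% of the full sum for DMSO replicate 1 and 63.6% to 66.7% elsewhere. Each library was therefore rescaled to the full sum for the levels compared per length. The fits on log2 TPM used the deposited TPM without this rescaling.

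Of 65807 rows, 61 repeated symbols were left out. edgeR 4.0.16 (R 4.3.3) fitted treatment to TMM-scaled counts of 11550 genes kept by filterByExpr, and its adjusted p-values are Benjamini-Hochberg values over all of them. The SE is the log2 fold change's size divided by the square root of F. CPM are TMM-scaled, and values after ± are SD unless a log2 fold change precedes them, when they are SE. Ratios between members added 1 count. Overlaps came from GENCODE release 29 and promoters from RefSeq, in Python 3.11.15. Intervals between libraries cover their spread, and the floor of 3 counts covers counting error only.

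The members and lists were chosen with earlier results of these data known. Named were all 7 members, for each list up to 4 called genes of smallest p, and the 4 genes of nearest profile per called member; others are said to be outside this rule or complete a count. A few that the rule takes are not reported here. Alternatives were other scalings and filters, DESeq2 1.42.0, limma 3.58.1 (voom, quality weights, and log2 TPM with a pseudocount of 1 or 0.1), length offsets, other prior counts and lengths, the replicate number as a block and each library left out. Offsets for GC content with length (mgcv 1.9.3) were added after seeing the data.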

Additional observations from a re-analysis of the deposited data

How the results depend on the processing

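CDKN1A kept its call in all 19 other settings. Over the fits that left out 1 library, genes called higher ranged from 407 to 3278 and lower from 338 to 3227, with the highest without DMSO replicate 1. Log2 fold changes in these fits ranged from -0.44 to -0.36 for CDKN1B, -0.66 to -0.51 for CDKN2A, 1.25 to 1.57 for CDKN2B, -0.55 to -0.40 for CDKN2C and -0.27 to 0.30 for CDKN2D, which was -0.0046 without erianin replicate 3. Quality weights gave 3699 genes higher and 3709 lower, and -0.31 for CDKN2D (adjusted p = 0.0026). Total counts alone gave 918 genes lower, and CDKN1B (-0.29) and CDKN2C (-0.35) lost their calls. So did CDKN2C with upper-quartile scaling (-0.38). The fits on log2(TPM + 1) and log2(TPM + 0.1) used TPM that were not rescaled, of which DMSO replicate 1 had the lowest sum. They called 262 and 245 genes lower, and CDKN1B (-0.13 in both), CDKN2A (-0.31 in both) and CDKN2C (-0.18 in both) lost their calls. These scalings moved the median of all genes by 0.11 (total counts), 0.20 (TPM + 1) and 0.28 (TPM + 0.1). Relative to it the values were -0.40 and -0.46 for CDKN1B and CDKN2C with total counts, and -0.41, -0.59 and -0.46 for CDKN1B, CDKN2A and CDKN2C on log2(TPM + 0.1). CDKN2D was -0.088 with length offsets and -0.081 with GC content and length offsets, the GC offsets having been chosen after seeing the data. The log2 ratio of CDKN1B to CDKN2C differed by -0.02 without DMSO replicate 3 and by up to 0.18, without DMSO replicate 1. The cause of these changes was not tested. In their deviations from the group mean, same-numbered libraries correlated at 0.158, -0.13 and 0.217, and erianin replicate 3 correlated best with DMSO replicate 2 (0.23). With 3 libraries a group and DMSO replicate 1 apart, these values cannot tell whether the numbers pair the samples. With the replicate number as a block, 1139 genes were called higher and 1157 lower, and CDKN1B (-0.40, adjusted p = 0.07) and CDKN2C (-0.46, adjusted p = 0.057) lost their calls. CDKN2B rests on counts of 21 to 88 per library.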
